A study of Homo sapiens with 74 samples.

Results

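The gene-poor domain of human chromosome 21 from 15 to 28 Mb (hg19) was examined by ATAC-seq in HAP1 cells that lacked single subunits of the BAF complexes. The knockout count table lists 145536 accessible regions, and 435 of them lie in this domain and are its members. The domain was chosen by position after fold changes of the same knockout table had shown it lower in several clones, so the knockout values are a description and carry no test of a member. Of the members, 214 lie from 15 to 20 Mb, 101 from 20 to 25 Mb and 120 from 25 to 28 Mb, and 886 regions lie on the rest of chromosome 21. All 435 are also listed in the knockdown count table, whose libraries took no part in the choice.

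Gene deserts are long stretches with few protein-coding genes, and much of their chromatin is closed in any one cell type. NCAM2, a cell adhesion gene of the nervous system, is the only protein-coding gene between TMPRSS15, which encodes enteropeptidase, and MRPL39, a mitochondrial ribosomal protein gene. That order comes from RefSeq on a later genome build and was used for gene order only, with 27 lncRNA genes and 3 miRNA genes in the same interval. Other genes known to lie in the domain include NRIP1, a corepressor of nuclear receptors, CXADR, the coxsackievirus and adenovirus receptor, and APP, the amyloid precursor. In ATAC-seq a transposase inserts adapters into open DNA, so the reads in a region measure its accessibility. BAF complexes use ATP to slide or evict nucleosomes. They come in a canonical form with ARID1A or ARID1B, a PBAF form with ARID2, PBRM1, BRD7 and PHF10, and a non-canonical form with BRD9. HAP1 is a near-haploid human cell line of chronic myeloid leukaemia origin.

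The knockout table holds 22 knocked-out genes in 26 clones, each with 2 libraries, and 4 wild-type (WT) libraries. The genes are ACTB, ARID1A, ARID1B, ARID2, BCL11A, BCL11B, BCL7A, BCL7B, BRD7, BRD9, DPF1, DPF2, DPF3, PBRM1, PHF10, SMARCA2, SMARCA4, SMARCC1, SMARCC2, SMARCD1, SMARCD2 and SMARCD3. ARID1A, ARID1B, BCL7B and SMARCA4 have 2 clones each and every other gene has 1, so for those genes the loss of the gene and a property of the clone cannot be told apart. By the form of the titles the libraries fall into set 1, with 23 clones and WT replicates 1 and 2, and set 2, with ARID1B clone 5, BCL7B clone 10, SMARCC2 clone 10 and WT replicates 5 and 6. The knockdown table holds 8 groups of 2 libraries. They are ARID2 knockout cells with SMARCA4 or control knockdown, SMARCA4 knockout cells with ARID2 or control knockdown, and WT cells with SMARCA4, ARID2, double or control knockdown. The knockdowns are written sh in the titles and si in the characteristics, so whether they were hairpins or siRNAs is not settled by the labels. The labels do not say which knockout clone was used in that table, nor that replicates were separate cultures, and a p-value here refers to the scatter of these libraries alone, which may be technical. No value used here checks the loss of a gene or the efficiency of a knockdown.

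Library totals were 5085811 to 12422345 reads in the knockout table and 5355899 to 12432292 in the knockdown table. A typical member (the median) held 16 to 40 reads in a knockout-table library and 11 to 31 in a knockdown-table one. Between replicates, log2 CPM (CPM is a region's reads scaled to the library total over all regions) of the 435 members had a correlation of 0.943 to 0.982 for knockout-table groups and 0.910 to 0.970 for the knockdown groups. Set 2 libraries were shallower, at 5085811 to 7331537 reads. In a bulk library, fewer cells with an open region and less opening per cell cannot be told apart.

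The members are weakly accessible and unevenly spaced. The domain held 33.5 regions per Mb and its 20 to 25 Mb stretch 20.2 per Mb, against 42.25 per Mb on chromosome 21 beyond 28 Mb. The 1 Mb bins from 15 and 16 Mb held 23 and 28 members, and those from 17, 18 and 19 Mb held 72, 42 and 49. From 20 to 26 Mb each bin held 13 to 26, and the bins from 26 and 27 Mb held 38 and 56. The median member had 2.96 CPM in WT cells of set 1, the median member from 20 to 25 Mb had 2.56 CPM, and the median of all regions was 3.54 CPM. Ranked by mean log2 CPM over all libraries of the knockout table, 149 members lay above the median of all regions and 286 below it, and 20 stood in the most accessible 10% of regions. Members had a median width of 602 bp, against 622 bp for all regions. The members at the edges were ordinary. The first, chr21:15264263-15264764, had 1.85 and 2.39 CPM in WT set 1 and the last, chr21:27997928-27998429, had 1.56 and 2.77 CPM. The nearest regions outside were chr21:11180716-11181998, with 7.49 and 8.07 CPM, and chr21:28005290-28005791, with 2.14 and 3.40 CPM.

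Clones differed from WT most often in the stretches from 20 to 25 Mb and from 25 to 28 Mb. Called means past the adjusted p threshold of edgeR's test, which is given below with the ATPase knockouts. The 51 members called lower in 5 or more clones were 21 of the 101 from 20 to 25 Mb, 24 of the 120 from 25 to 28 Mb and 6 of the 214 from 15 to 20 Mb. They made up 11.7% of the members, against 2.98% of all regions called lower in 5 or more clones. The median log2 fold change of a stretch was below 0 in 21 of 26 clones from 20 to 25 Mb, in 20 from 25 to 28 Mb and in 14 from 15 to 20 Mb. The stretch from 20 to 25 Mb summed to 395 and 391 CPM in the WT libraries of set 1 and to 514 and 556 CPM in those of set 2. In the knockout libraries the same sum ran from 179 CPM in a library of ARID1B clone 7 to 544 CPM in a library of ARID1B clone 5. Replicates lay close together, so most clones stood clear of WT of their own set in one direction or the other.

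**Figure D1:**
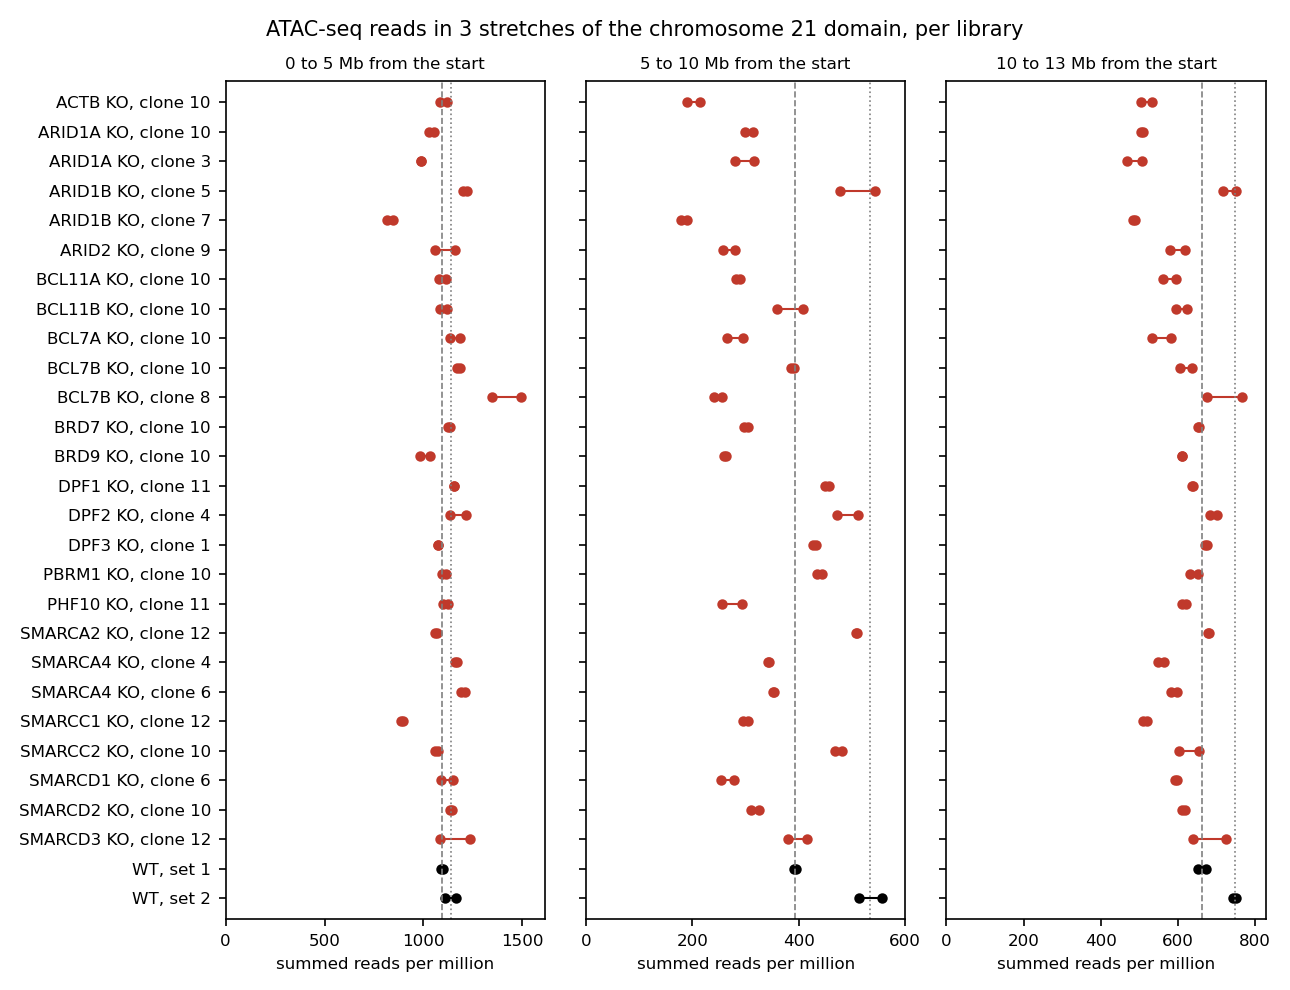
Summed CPM in each library (points, 2 per group, joined by a line) for the 3 stretches of the domain, measured from its start at 15 Mb, with knockout clones above and WT below. Dashed and dotted vertical lines mark the WT means of set 1 and set 2. In the middle panel, 5 to 10 Mb from the start, ARID1B clone 7 and ACTB stand lowest, between 179 and 215, and SMARCA2 stands at 507 and 509, against 395 and 391 in WT set 1.

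Among the ATPase knockouts the 2 paralogs stood on opposite sides of WT set 1 from 20 to 25 Mb. SMARCA4, an ATPase that drives the remodelling, had 344 and 342 CPM from 20 to 25 Mb in clone 4 and 353 and 351 CPM in clone 6. SMARCA2, the other ATPase, had 507 and 509 CPM, above both WT libraries of set 1. It lay below both WT libraries of set 2, at 514 and 556 CPM. The median log2 fold change of the 101 members of this stretch was -0.10 and -0.12 in the SMARCA4 clones and 0.27 in SMARCA2. From 25 to 28 Mb the SMARCA4 medians were lower, at -0.46 and -0.42, and SMARCA2 had 0.08. A region past an adjusted p of 0.05 (edgeR's quasi-likelihood test, Benjamini-Hochberg over all regions) is said to be called. Over the whole domain 65 members were called lower and 35 higher in SMARCA4 clone 4, where 11.2% and 6.3% of all regions were called. Clone 6 had 51 lower and 35 higher, with 10.3% and 5.48% of all regions. From 25 to 28 Mb lay 31 of the 65 and 24 of the 51, and from 20 to 25 Mb 10 and 8. Those 10 and 8 were 9.90% and 7.92% of the 101 members there, under the shares of all regions called lower. In SMARCA2 3 members were lower and 2 higher, with 0.16% and 0.0742% of all regions.

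The core scaffold subunits gave lower sums from 20 to 25 Mb in 3 clones of set 1, and no clone had both libraries above WT of its own set. SMARCC1 had 305 and 296 CPM from 20 to 25 Mb, SMARCD1 had 278 and 254 CPM, and SMARCD2 had 310.0 and 325 CPM. SMARCD3, with 416 and 380.1 CPM, straddled WT set 1. SMARCC2, a set 2 clone with 482 and 469 CPM, lay below its own WT libraries at 514 and 556 CPM. From 15 to 20 Mb SMARCC1 had 898 and 888 CPM, against 1087 and 1099.6 CPM in WT set 1, and SMARCC2 had 1073 and 1058 CPM, against 1109 and 1165 CPM in WT set 2. From 25 to 28 Mb SMARCC1 had 510.0 and 520.2 CPM, SMARCD1 598 and 591 CPM and SMARCD2 618 and 611 CPM, against 652 and 673 CPM in WT set 1, and SMARCC2 had 603 and 654 CPM, against 751 and 744 CPM in WT set 2. SMARCC1 had 64 members called lower and 2 higher, with 4.19% and 1% of all regions. SMARCD1 had 34 lower and 4 higher, with 0.814% and 0.764% of all regions. SMARCC2 had 10 lower and 2 higher, with 0.0584% and 0.0357%, and 9 of the 10 lay from 25 to 28 Mb and 0 from 20 to 25 Mb. SMARCD2 had 6 lower and 0 higher, with 0.201% and 0.223%, and SMARCD3 had 1 lower and 7 higher, with 0.368% and 0.474%.

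Of the subunits of the canonical form, ARID1A and ARID1B clone 7 were lower and the DPF clones were not. ARID1A, the DNA-binding subunit, had 299.5 and 314 CPM from 20 to 25 Mb in clone 10 and 316 and 281 CPM in clone 3. ARID1B, its paralog, had 179 and 189 CPM in clone 7, the lowest pair of the table. ARID1B clone 5 of set 2 had 477 and 544 CPM and overlapped WT set 2. In ARID1A clone 10 59 members were called lower and 7 higher, with 7.02% and 1.24% of all regions, and in clone 3 68 lower and 5 higher, with 7.72% and 1.95%. Their medians were -0.34 and -0.36 from 20 to 25 Mb and lower from 25 to 28 Mb, at -0.60 and -0.57, where 28 of the 59 and 30 of the 68 lay. ARID1B clone 7 had the largest count of lower members in the table, 94 with 11 higher, where 3.19% and 6.03% of all regions were called. ARID1B clone 5 had 1 lower and 0 higher, with 0.205% and 0.0701%.

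DPF1, DPF2 and DPF3 are plant homeodomain finger proteins that take the same place in the canonical form. From 20 to 25 Mb DPF1 had 457 and 449 CPM, DPF2 had 512 and 472 CPM and DPF3 had 432 and 426 CPM, and all 6 libraries lay above WT set 1. DPF2 had 5 members called lower and 18 higher, with 0.374% and 1.42% of all regions. DPF1 had none in either direction, with 0.0378% and 0.0137% of all regions, and 41 members, 9.43%, at an unadjusted p under 0.05, against 5.39% of all regions. DPF3 had 3 lower and 1 higher, with 0.0302% and 0.0364%.

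Within PBAF, ARID2, BRD7 and PHF10 lay below WT set 1 from 20 to 25 Mb and PBRM1 lay above it. ARID2, the defining subunit, had 280.2 and 258 CPM from 20 to 25 Mb, BRD7, a bromodomain protein, had 296 and 305 CPM, and PHF10, a plant homeodomain finger protein, had 294 and 256 CPM. PBRM1, which carries an array of bromodomains, had 435 and 445 CPM, below both libraries of WT set 2 at 514 and 556 CPM. BRD9, the bromodomain subunit of the non-canonical form, had 259.9 and 263 CPM. ARID2 had 24 members called lower and 6 higher, with 1.11% and 0.682% of all regions, and 14 of the lower ones lay from 20 to 25 Mb. BRD7 had 12 lower and 3 higher, with 0.312% and 0.383%, PHF10 had 9 lower and 1 higher, with 0.243% and 0.148%, PBRM1 had 7 lower and 3 higher, with 0.243% and 0.18%, and BRD9 had 11 lower and 1 higher, with 0.238% and 0.26%. The 7 lower members of PBRM1 all lay from 15 to 20 Mb.

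ACTB, the actin of the ATPase module, had the second-lowest pair of sums from 20 to 25 Mb, 215 and 189.9 CPM. Its 39 lower and 3 higher members compare with 0.519% and 0.833% of all regions, and 24 of the 39 lay from 20 to 25 Mb. BCL7A, another protein of that module, had 295 and 265 CPM, and 22 members were lower and 7 higher, with 0.189% and 0.278% of all regions. BCL7B clone 8 had 256 and 241 CPM, and BCL7B clone 10 of set 2 had 385 and 391 CPM, below its own WT libraries. The zinc finger factors BCL11A and BCL11B co-purify with BAF. BCL11A had 289 and 282 CPM with 34 members lower and 4 higher, where 0.295% and 0.38% of all regions were called. BCL11B, with 359 and 408 CPM, straddled WT set 1 and had 10 members lower and 4 higher, with 0.357% and 0.535%, and 9 of the 10 lay from 25 to 28 Mb and 0 from 20 to 25 Mb.

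All 23 clones of set 1 were set against the same 2 WT libraries, so their differences are not independent of each other. Of these, 16 had both libraries below both WT libraries from 20 to 25 Mb, 5 had both above (DPF1, DPF2, DPF3, PBRM1 and SMARCA2) and 2 overlapped. WT set 1 itself lay below WT set 2 in this stretch. The 5 clones above WT set 1 all lay below both WT libraries of set 2, at 514 and 556 CPM. The median log2 difference of set 2 over set 1 was 0.44, and 27 members of the domain were called higher and 5 lower in set 2, with 4.29% and 1.54% of all regions. Without any 1 of the 4 WT libraries those counts were 12 to 14 and 0 to 2. In WT set 2 as in set 1 no gene was removed, so the domain also differed between WT libraries. The share of reads in the least accessible 25% of all regions was 5.28% to 7.98% over the knockout-table libraries and was 6.597% and 6.06% in ACTB, 5.95% and 6.18% in ARID1B clone 7 and 6.27% and 7.11% in WT set 1. Its part in the differences was not tested.

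Over all members and clones, each against WT of its own set, 691 member calls were lower and 198 higher. Of the 435 members, 186 were lower in at least 1 clone, 97 were higher in at least 1, 46 of these were in both lists, and 198 were called in no clone. Over all regions 20.1% were lower and 18.1% higher in at least 1 clone, against 42.8% and 22.3% of members. Pooling all 4 WT libraries as the reference gave 1259 lower and 242 higher calls. Leaving out replicate 1 of each clone, in fits that dropped it from every second clone at a time, gave 354 and 105, leaving out replicate 2 likewise gave 374 lower, leaving out WT replicate 1 of set 1 gave 403 and 119, and leaving out WT replicate 2 of set 1 gave 87 higher. The rest of chromosome 21 had medians of -0.16 to 0.18 over the clones, and medians over all regions were within 0.02 of 0. In SMARCA4 clones 4 and 6 the medians were 0.17 and 0.12 there and -0.11 and -0.13 in the domain. Of the 886 regions there 66 were called lower and 45 higher in SMARCA4 clone 4, with 11.2% and 6.3% of all regions. In DPF1 0 were called.

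The profile along the domain was not flat. Medians over the members of each 1 Mb bin were deepest between 22 and 25 Mb, where the median clone had -0.60, -0.54 and -0.51 in successive bins. In the bins from 21, 25 and 26 Mb the median clone had -0.20, -0.29 and -0.28. Over the clones the bin from 15 Mb had medians of -0.32 to 0.41, that from 16 Mb -1.03 to 0.50, that from 17 Mb -0.38 to 0.25 and that from 20 Mb -0.20 to 0.31. The bin from 26 Mb ran from -0.85 to 0.11 and was below 0 in 24 clones. ACTB had medians of -1.68, -1.49, -1.47 and -1.22 on the log2 scale in the bins from 22, 23, 24 and 25 Mb. ARID1B clone 7 had -1.81, -1.91 and -1.97 in those from 21, 22 and 23 Mb. SMARCD1 reached -1.69 from 22 Mb and BCL11A -1.49, while BCL7B clone 10 and SMARCD2 were lowest in the next bin, at -1.57 and -1.46.

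The SMARCA4 and ARID1A clones had another profile. In the bins from 22 and 23 Mb SMARCA4 clone 4 had medians of 0.10 and 0.11, and clone 6 had 0.08 and 0.16. From 24 and 25 Mb the medians were -0.95 and -0.86 in clone 4 and -0.55 and -0.77 in clone 6. ARID1A clone 10 was lowest in the same 2 bins, at -0.98 and -1.26, and clone 3 at -0.91 and -1.05. DPF1, DPF2 and SMARCA2 were highest in the bin from 23 Mb, at 0.62, 0.70 and 0.58. The bin from 27 Mb, the last of the domain, had medians of -0.33 to 0.34 over the clones, with -0.013 in the median clone. Beyond the edge, in the bin from 28 Mb, the median clone had -0.14. There SMARCA4 clone 4 had a median of -0.99, clone 6 had -0.80 and ARID1B clone 7 had -1.19.

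**Figure D2:**
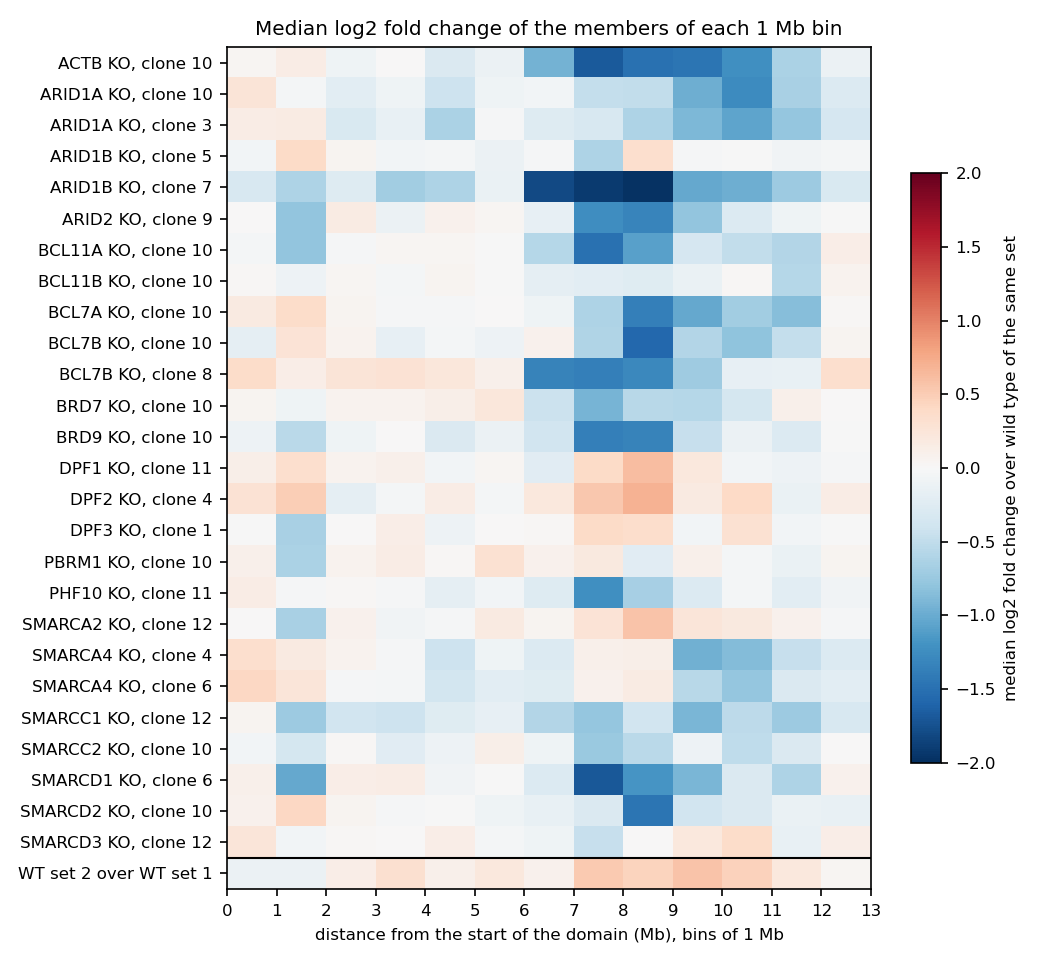
Median log2 fold change over WT of the same set, by clone (rows) and 1 Mb bin (columns, distance from the start of the domain); each bin holds 13 to 72 members. Blue marks lower and red marks higher accessibility in the clone. The darkest blue cells lie 6 to 11 Mb from the start, for example ARID1B clone 7 at -1.97 and ACTB at -1.68, and the SMARCA4 clones are pale from 7 to 9 Mb and blue in the next bin, at -0.95 and -0.55.

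Where a gene had 2 clones, few or no members differed between them for 2 genes and more did for the other two. ARID1A clone 3 differed from clone 10 at 1 member, lower, with 0.0337% of all regions lower and 0.0261% higher. SMARCA4 clone 4 differed from clone 6 at none, with 0.17% and 0.0536% of all regions, and at 25 members, 5.75%, at an unadjusted p under 0.05, against 6.46% of all regions. ARID1B clone 5, relative to its WT, differed from clone 7, relative to its own, at 2 members lower and 42 higher, with 3.7% and 1.27% of all regions. Without ARID1B clone 7 replicate 1 the higher count was 27, and the lower count was 4 without clone 5 replicate 2 and 1 without WT replicate 2 of set 1. BCL7B clone 10 differed from clone 8 at 32 members lower and 10 higher, with 3.41% and 0.901% of all regions. Those counts were 7 and 4 without BCL7B clone 8 replicate 1, 17 and 5 without WT replicate 5 of set 2, 15 lower without WT replicate 2 of set 1, and 21 and 20 lower without replicate 1 or 2 of clone 10. For both of these genes the clones belong to different sets, so clone and set cannot be told apart. BCL7B clone 8 alone had 35 members lower and 35 higher, with 1.33% and 3.5% of all regions. Its 24 lower members from 20 to 25 Mb stood beside 23 higher ones from 15 to 20 Mb, where its libraries held 1493 and 1344 CPM, against 1087 and 1099.6 CPM in WT set 1. BCL7B clone 10 had 24 members lower and 2 higher, with 0.55% and 0.192% of all regions.

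The most accessible members ranged less widely over the clones than those of the desert. chr21:27106993-27108365, the most accessible of all, had clone means of 44.9 CPM in BCL7B clone 10 at the lowest, 57.2 at the median and 79.0 in SMARCA4 clone 6 at the highest, against 63.3 and 55.6 CPM in WT set 1 and 57.4 and 53.9 CPM in WT set 2. chr21:27541273-27543693 ranged from 35.6 CPM in PBRM1 to 57.5 in SMARCA4 clone 6, around 46.6 and 44.0 CPM in WT set 1. chr21:15755300-15755965 ranged from 38.7 CPM in SMARCC2 to 68.7 in BCL7B clone 8, with 48.3 and 39.1 CPM in WT set 1 and 49.6 and 51.3 CPM in WT set 2, the set of SMARCC2. Of the 23 clones of set 1, 6, 2 and 0 lay below both WT libraries at these 3 members and 3, 10 and 8 above both. chr21:18884728-18886183 and chr21:19190732-19192502 completed the top 5, with clone medians of 39.7 and 38.6 CPM.

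The most accessible member of each bin of the desert varied more. chr21:21388765-21389415 held 0.560 CPM in ARID1B clone 7, with a median of 19.2 over clones and 26.2 in ARID1B clone 5 at the highest, against 19.5 and 18.4 CPM in WT set 1 and 24.7 and 26.2 CPM in WT set 2, the set of clone 5. chr21:22033472-22035322 held 2.25 CPM in ARID1B clone 7, with a median of 19.0 and 44.0 in SMARCC2 at the highest, against 26.8 and 23.2 CPM in WT set 1 and 39.1 and 34.5 CPM in WT set 2, the set of SMARCC2. chr21:23084151-23085519 held 1.18 CPM in the same clone, with a median of 14.1 and 36.4 in SMARCC2 at the highest, against 20.8 and 12.9 CPM in WT set 1 and 29.2 and 26.7 CPM in WT set 2. ARID1B clone 7 was the lowest clone at all 3 of these members. It was not the lowest at the other two, where chr21:20204113-20205678 was lowest in SMARCA4 clone 4, at 4.50 CPM against 14.5 and 13.9 CPM in WT set 1, and chr21:24774657-24776379 was lowest in ACTB, at 6.63 CPM against 15.4 and 22.6 CPM in WT set 1.

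The members called lower in the largest number of clones were chr21:24406293-24406860 and chr21:22418214-22418864, in 14 clones each, and chr21:25701999-25702604, chr21:23448655-23449293 and chr21:22401388-22401982, in 13 each. The first held 0.246 CPM in SMARCC1 at the lowest, 1.09 at the median clone and 7.82 in ARID1B clone 5 at the highest, against 3.99 and 4.03 CPM in WT set 1 and 7.23 and 7.14 CPM in WT set 2. The last-but-one, chr21:23448655-23449293, held 0.364 CPM in ARID1B clone 7, 1.74 at the median clone and 10.6 in DPF2, against 4.18 and 5.04 CPM in WT set 1. In WT set 1 all 5 held between 3.66 and 7.81 CPM per library, against a median of 3.54 CPM over all regions. The members called higher in the largest number of clones all lay from 17 to 18 Mb. They were chr21:17442457-17443156, in 13 clones, its neighbour chr21:17443302-17444544, in 12, and chr21:17906537-17907828, in 10. chr21:17442457-17443156 held 20.5 CPM in BCL7B clone 8, 9.24 at the median clone and 2.201 in BRD7, against 6.12 and 3.91 CPM in WT set 1.

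**Figure D3:**
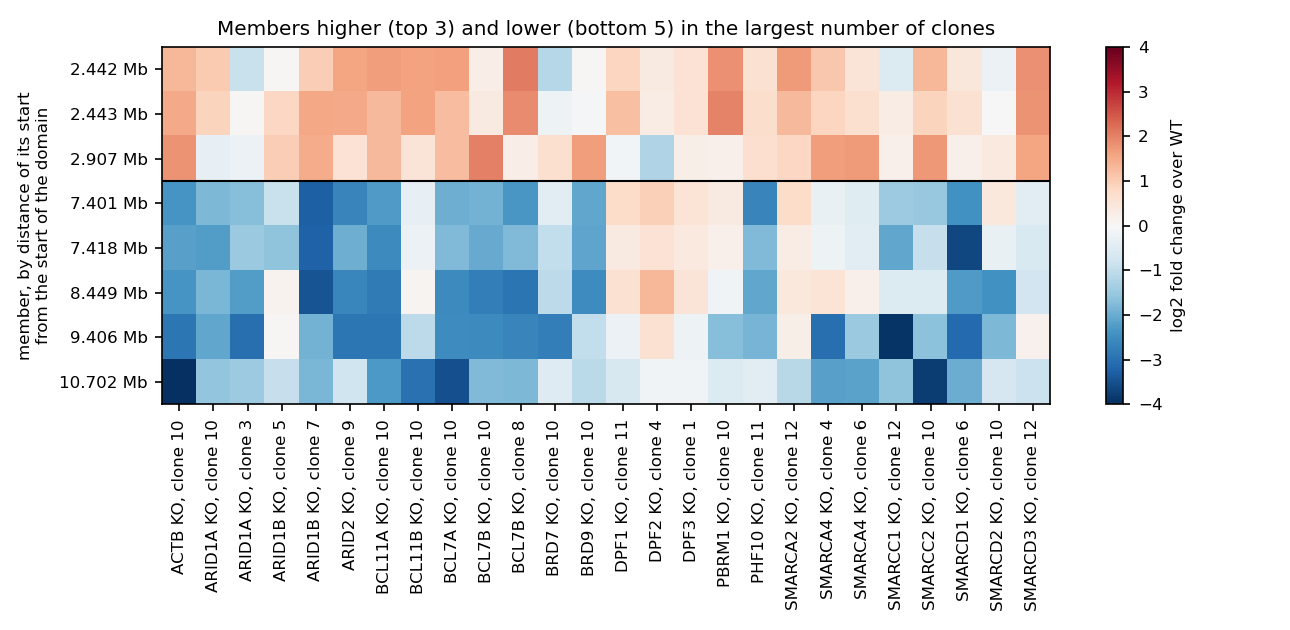
Log2 fold change over WT of the same set for the 3 members called higher (upper rows) and the 5 called lower (lower rows) in the largest number of clones, chosen on these same values; rows are labelled by distance from the start of the domain and columns are the 26 clones. In the first 3 of the lower rows, between 7 and 9 Mb from the start, the DPF clones and SMARCA2 are red while most other clones are blue, as at chr21:23448655-23449293, where DPF2 held 10.6 CPM against 4.18 and 5.04 in WT set 1.

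The knockdown table allows tests that the choice of the domain did not use. The stretch from 20 to 25 Mb summed to 252 and 258 CPM in ARID2 knockout cells with SMARCA4 knockdown and to 342 and 359 CPM in ARID2 knockout cells with control knockdown. SMARCA4 knockout cells held 394 and 428 CPM with ARID2 knockdown and 452 and 452 CPM with control knockdown. WT cells held 347 and 364 CPM with SMARCA4 knockdown, 564 and 523 CPM with ARID2 knockdown, 418 and 475 CPM with the double knockdown and 450.3 and 524 CPM with control knockdown. The ARID2 knockout groups and the SMARCA4 knockdown in WT cells lay below both control libraries, as did SMARCA4 knockout cells with ARID2 knockdown, while the SMARCA4 knockout with control knockdown lay between the control libraries, the double knockdown overlapped them, and the ARID2 knockdown overlapped them at the upper end. In all 8 groups replicate 2 had the larger share of reads in the least accessible 25% of all regions, 7.29% to 9.18% in replicate 2 and 5.08% to 7.27% in replicate 1. Its part in the results was not tested.

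**Figure D4:**
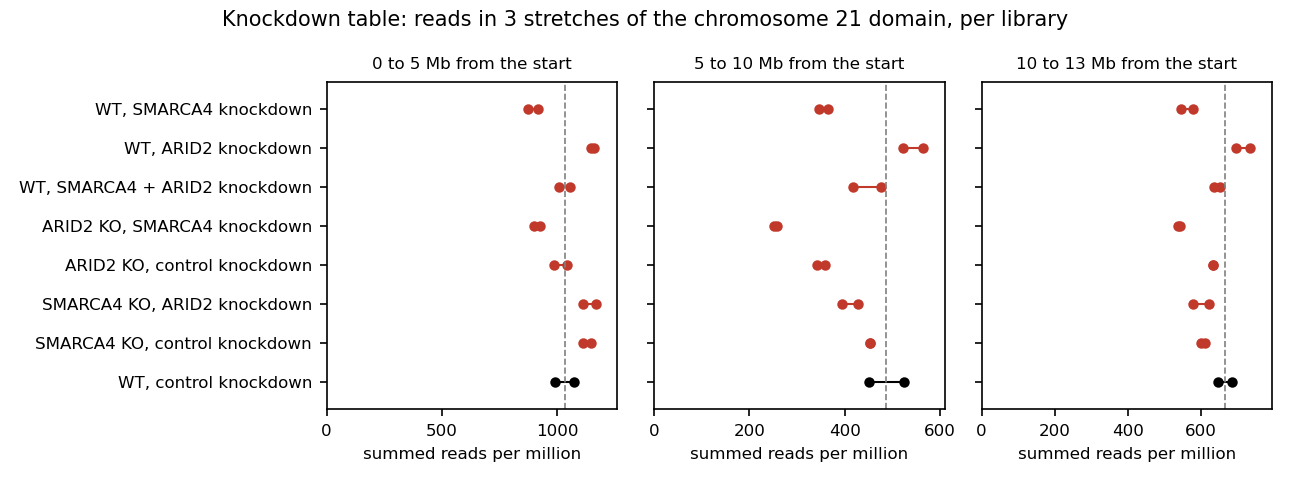
Summed CPM in each library of the knockdown table (points, 2 per group, joined by a line) for the 3 stretches of the domain, measured from its start at 15 Mb, with WT cells with control knockdown at the bottom. In the middle panel the ARID2 knockout libraries lie between 252 and 359, below both WT control libraries at 450.3 and 524.

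ARID2 knockout cells with control knockdown had 18 members called lower and 2 higher against WT cells with control knockdown, where 0.374% of all regions were called lower and 0.0446% higher (edgeR's quasi-likelihood test). That is 4.14% and 0.460% of the members. Of the 18, 13 lay from 20 to 25 Mb, where the median log2 fold change was -0.44. The bins from 22, 23 and 24 Mb had medians of -0.96, -1.53 and -0.76, and no other bin of the domain went below -0.36. Beyond the edge, the bin from 28 Mb had a median of -0.39, with 4 of its 27 regions called lower. The lower count was 4 without ARID2 knockout replicate 1, 5 without its replicate 2, and 7 without either control library. The higher count was 0 without ARID2 knockout replicate 1 or WT control replicate 2 and 1 without either of the others.

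The most accessible members of 2 desert bins were among those that fell in ARID2 knockout cells. chr21:22033472-22035322 held 7.83 and 7.07 CPM in ARID2 knockout cells with control knockdown, against 32.9 and 37.0 CPM in WT cells with control knockdown. The groups did not overlap, and the log2 fold change was -2.42 (SE 0.43, edgeR adjusted p = 0.000501). The call was lost without ARID2 knockout replicate 2, at an adjusted p of 0.0709. chr21:23084151-23085519 held 6.02 and 6.53 CPM, against 32.0 and 30.3 CPM in WT cells with control knockdown. Its log2 fold change was -2.52 (SE 0.42, edgeR adjusted p = 0.000249), and it stayed called without any 1 of the 4 libraries. In SMARCA4 knockout cells with control knockdown the same members held 39.0 and 39.7 CPM, and 34.2 and 32.8 CPM, at or above the WT control libraries.

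chr21:23448655-23449293 held 0.904 and 1.09 CPM in ARID2 knockout cells with control knockdown, against 7.49 and 8.24 CPM in WT cells with control knockdown. Its log2 fold change was -3.17 (SE 0.47, edgeR adjusted p = 2.52e-05), called without any 1 library. chr21:22418214-22418864 held 0.452 and 2.36 CPM, against 7.31 and 9.13 CPM in WT, a log2 fold change of -2.81 (SE 0.48, edgeR adjusted p = 0.000307) that was not called without ARID2 knockout replicate 1, at an adjusted p of 0.131. chr21:23348717-23349295 had no read in either ARID2 knockout library, against 21 and 19 reads in the WT control libraries. With a floor of 3 reads over the group it was at least 8.42-fold lower in ARID2 knockout cells (counting error only, since reads carry no molecular identifiers). Without either ARID2 knockout library it was not called, at an adjusted p of up to 0.129. The next by size, chr21:23908701-23909202 and chr21:23499462-23499995, held 0.602 and 0 CPM, and 0.151 and 0.725 CPM, in ARID2 knockout cells, against 2.47 and 3.17 CPM, and 2.82 and 4.06 CPM, in WT control cells. The second was called in none of the fits that left out 1 library, and chr21:23908701-23909202 was not called without ARID2 knockout replicate 2 or WT control replicate 2.

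Of the 2 members called higher in ARID2 knockout cells, chr21:17442457-17443156 held 26.1 and 12.1 CPM, against 4.76 and 4.31 CPM in WT control cells. The log2 fold change was 1.89 (SE 0.37, edgeR adjusted p = 0.00282), and the call was lost without ARID2 knockout replicate 1 or either control library, at an adjusted p of up to 0.319. It is also the member called higher in the largest number of knockout clones. The other, chr21:25581197-25581698, held 4.52 and 3.08 CPM, against 0.704 and 0 CPM in WT control cells, and lost its call without either ARID2 knockout library or WT control replicate 2. It was also called higher in SMARCA4 knockout cells and under the double knockdown, comparisons that share those 2 low control libraries.

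ARID2 knockdown in WT cells gave no called member in either direction, as in all regions, where 0% were called. At an unadjusted p under 0.05 there were 20 members, 4.60% of them, against 4.24% of all regions, and DESeq2 called 0. The median log2 fold change from 20 to 25 Mb was 0.12. The 18 members lower in ARID2 knockout cells had log2 fold changes of -0.47 to 0.63 under ARID2 knockdown, with a median of -0.0021. In the knockout their median was -2.44, and both comparisons use the same control libraries. chr21:22033472-22035322 held 44.6 and 30.3 CPM under ARID2 knockdown in WT cells and chr21:23084151-23085519 held 37.5 and 19.99 CPM.

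The difference between knockout and knockdown of ARID2 was tested directly, a comparison added after the data were seen. ARID2 knockout cells with control knockdown had 12 members lower and 1 higher than WT cells with ARID2 knockdown, where 0.117% and 0.00687% of all regions were called (edgeR's quasi-likelihood test). Of the 12, 9 lay from 20 to 25 Mb. chr21:22033472-22035322 was among them, with a log2 fold change of -2.42 (SE 0.43, edgeR adjusted p = 0.00106), and so was chr21:23084151-23085519 at -2.31 (SE 0.42, edgeR adjusted p = 0.0016). The lower count was 1 without ARID2 knockout replicate 1 or without WT ARID2 knockdown replicate 1, and 3 without ARID2 knockout replicate 2, and the higher member was not called without ARID2 knockout replicate 1 or either ARID2 knockdown library. Both named calls were lost without each of these 3 libraries.

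**Figure D5:**
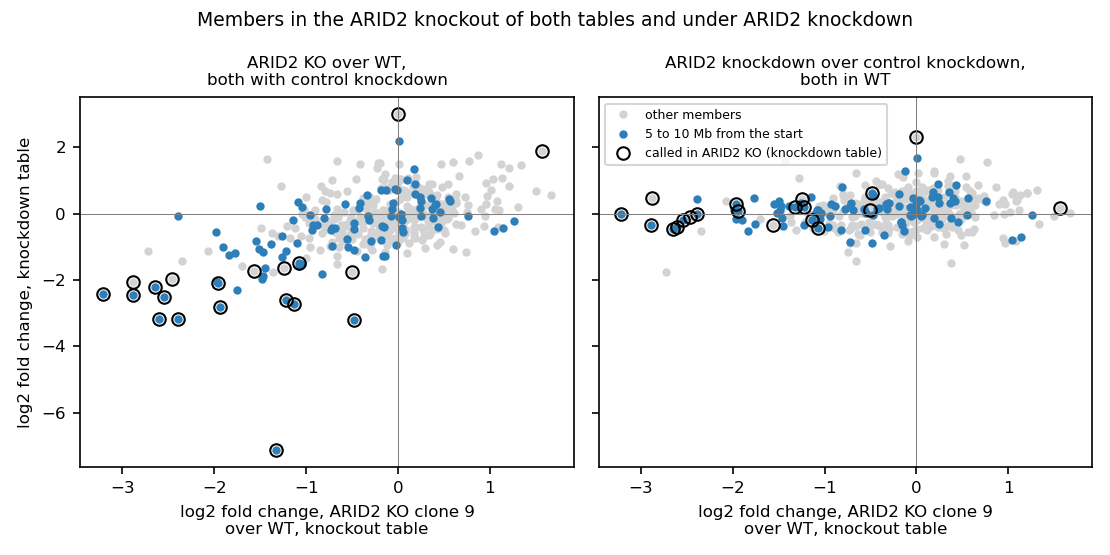
Log2 fold change of each of the 435 members in the knockdown table (vertical axis) against that of ARID2 knockout clone 9 in the knockout table (horizontal axis), for ARID2 knockout cells with control knockdown (left) and WT cells with ARID2 knockdown (right), both over WT cells with control knockdown. Blue points are members 5 to 10 Mb from the start and rings mark the 20 members called in the left comparison. The 18 lower ringed members lie low in the left panel, at a median of -2.44, and near 0 in the right panel, at a median of -0.0021.

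The ARID2 knockouts of both tables share no library. Clone 9 of the knockout table had 24 members lower and the ARID2 knockout cells with control knockdown had 18, and 13 were in both lists, 54.2% of the first and 72.2% of the second. All 18 were below 0 in clone 9, from -3.21 to -0.48 with a median of -1.95. Whether both tables used the same clone is not stated in the labels.

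SMARCA4 knockout cells with control knockdown had 46 members lower and 16 higher against WT cells with control knockdown, where 8.26% and 1.49% of all regions were called (edgeR's quasi-likelihood test). That is 10.6% and 3.68% of the members. The lower members were 14 of the 214 from 15 to 20 Mb, 6.54%, and 15 of the 101 from 20 to 25 Mb, 14.9%. From 25 to 28 Mb they were 17 of 120, 14.2%. The bins from 24 and 25 Mb had medians of -0.79 and -0.64, and those from 22 and 23 Mb had 0.14 and 0.50. The lower count was 16 and 18 without SMARCA4 knockout replicate 1 and 2, and 22 without either control library. The higher count was 5 and 9 without SMARCA4 knockout replicate 1 and 2, and 4 and 7 without control replicate 1 and 2.

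chr21:25235226-25235858 held 2.03 and 1.78 CPM in SMARCA4 knockout cells, against 9.33 and 10.1 CPM in WT control cells. Its log2 fold change of -2.40 (SE 0.40, edgeR adjusted p = 6.38e-06) was called without any 1 library, and it was also called lower under SMARCA4 knockdown in WT cells, with 2.81 and 4.05 CPM, at a log2 fold change of -1.57 (SE 0.37, edgeR adjusted p = 0.00368) that was lost without SMARCA4 knockdown replicate 1. chr21:24406293-24406860 held 0.957 and 1.37 CPM in SMARCA4 knockout cells and 0.904 and 1.81 CPM in ARID2 knockout cells, against 6.52 and 6.21 CPM in WT control cells. In the first it fell by 2.52 on the log2 scale (SE 0.53, edgeR adjusted p = 0.000405), called without any 1 library. In the second it fell by 2.46 (SE 0.54, edgeR adjusted p = 0.0117), and that call was lost without any 1 of the 4 libraries. chr21:24585682-24586183 held 1.32 and 0.273 CPM in SMARCA4 knockout cells, against 3.43 and 5.70 CPM in WT control cells, and lost its call without SMARCA4 knockout replicate 2.

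Among the members higher in SMARCA4 knockout cells, chr21:16288723-16289543 held 13.9 and 14.7 CPM, against 3.35 and 5.20 CPM in WT control cells, a log2 fold change of 1.70 (SE 0.36, edgeR adjusted p = 0.000454) that was lost without control replicate 1, at an adjusted p of 0.0514. In ARID2 knockout cells the same member held 1.36 and 1.45 CPM, below both control libraries but short of the threshold (edgeR adjusted p = 0.0649). chr21:17906537-17907828 held 13.4 and 8.19 CPM in SMARCA4 knockout cells, against 3.96 and 2.53 CPM, and lost its call without SMARCA4 knockout replicate 1 or control replicate 2. chr21:16813299-16813896, with 2.27 and 2.32 CPM, and chr21:17457237-17457738, with 1.91 and 2.18 CPM, each stood against 0.352 and 0.507 CPM in WT control cells and lost their calls without any 1 library.

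SMARCA4 knockdown in WT cells had 35 members lower and 0 higher, where 4.96% and 0.773% of all regions were called (edgeR's quasi-likelihood test). That is 8.05% of the members lower. The 35 fell as 10 from 15 to 20 Mb, 11 from 20 to 25 Mb and 14 from 25 to 28 Mb. Without SMARCA4 knockdown replicate 1 or control replicate 1 there was 1 higher. DESeq2 also called 0 higher, and 95 members in both directions, 21.8%, had an unadjusted p under 0.05, against 18.4% of all regions. The lower count was 6 and 12 without SMARCA4 knockdown replicate 1 and 2, and 8 and 9 without control replicate 1 and 2. chr21:18873603-18874232 held 1.84 and 1.41 CPM under SMARCA4 knockdown, against 10.3 and 7.98 CPM in WT control cells, a log2 fold change of -2.48 (SE 0.44, edgeR adjusted p = 7.32e-05) that was called without any 1 library. It was also called lower in SMARCA4 knockout cells, which held 2.51 and 2.59 CPM, with the same control libraries. chr21:24977064-24977690 held 0.388 and 0.705 CPM, against 3.96 and 3.68 CPM, and lost its call without SMARCA4 knockdown replicate 1. chr21:25795751-25796359 held 0.679 and 0.176 CPM, against 4.67 and 3.04 CPM, and lost its call without SMARCA4 knockdown replicate 2 or control replicate 1.

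The SMARCA4 comparisons of both tables can be set side by side. SMARCA4 clone 4 shared 26 lower members with the SMARCA4 knockout cells of the knockdown table, 40% of its 65 and 56.5% of the 46, and clone 6 shared 21, 41.2% of its 51 and 45.7% of the 46. Of the 46, 44 were below 0 in clone 4 and 46 in clone 6. SMARCA4 knockdown in WT cells shared 15 of its 35 lower members with each clone. Of the 16 members higher in SMARCA4 knockout cells, 9 were called higher in each clone.

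Knockout and knockdown of SMARCA4 differed at 5 members, all higher in SMARCA4 knockout cells with control knockdown than in WT cells with SMARCA4 knockdown, where 0.21% of all regions were higher and 0.575% lower (edgeR's quasi-likelihood test, a comparison added after the data were seen). The count was 1 without SMARCA4 knockout replicate 1 and 2 without any 1 of the other 3 libraries, and 1 member was lower without SMARCA4 knockdown replicate 2. chr21:21827738-21828282 held 9.69 and 9.97 CPM in SMARCA4 knockout cells with control knockdown, against 1.75 and 1.76 CPM in WT cells with SMARCA4 knockdown. The log2 fold change was 2.44 (SE 0.44, edgeR adjusted p = 0.000396), called without any 1 library, and WT control cells held 3.35 and 2.66 CPM. chr21:20977193-20978196 held 10.9 and 9.56 CPM, against 2.72 and 3.00 CPM under SMARCA4 knockdown. The log2 fold change was 1.81 (SE 0.37, edgeR adjusted p = 0.00286), and the call held only without SMARCA4 knockout replicate 2.

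The double knockdown of SMARCA4 and ARID2 in WT cells had 22 members lower and 4 higher, where 4% and 0.618% of all regions were called (edgeR's quasi-likelihood test). That is 5.06% and 0.920% of the members. The lower count was 5 and 2 without double knockdown replicate 1 and 2, and 6 and 5 without control replicate 1 and 2, and the higher count was 2, 2, 2 and 1 in the same order. Of the 4 higher members 2 lay from 15 to 20 Mb and 2 from 25 to 28 Mb. chr21:17951808-17953050 held 24.04 and 20.7 CPM under double knockdown, against 4.84 and 5.45 CPM in WT control cells, a log2 fold change of 2.07 (SE 0.37, edgeR adjusted p = 0.00017) that was called without any 1 library. Under the single knockdowns in WT cells it held 8.53 and 4.58 CPM for SMARCA4 and 5.33 and 8.54 CPM for ARID2. chr21:17827894-17828779 held 27.5 and 19.6 CPM under double knockdown, against 6.78 and 7.48 CPM, and lost its call without double knockdown replicate 1 or either control library. In the lower direction chr21:20017996-20018631 held 1.43 and 1.34 CPM, against 6.16 and 7.48 CPM, and lost its call without either double knockdown library. chr21:21725605-21726198 held 0.407 and 0.837 CPM, against 2.38 and 4.18 CPM, and was called only without control replicate 1.

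A second loss on top of a knockout was tested in both knockout backgrounds. SMARCA4 knockdown in ARID2 knockout cells, against control knockdown in the same cells, called 0 members by edgeR's quasi-likelihood test and 0 by DESeq2, where 0.139% of all regions were lower and 0.0556% higher, and 41 members, 9.43%, had an unadjusted p under 0.05, against 9.51% of all regions. The median log2 fold change from 20 to 25 Mb was -0.30. Without SMARCA4 knockdown replicate 1 or ARID2 knockout control replicate 2, 1 member was called lower. A fit with the replicate number as a block called members in both directions for this comparison, as given with the alternatives below. ARID2 knockdown in SMARCA4 knockout cells called 0 members by both tools, with 0% of all regions, and 19 members, 4.37%, had an unadjusted p under 0.05, against 4.48% of all regions. Neither interaction, the difference of a knockdown's effect between knockout and WT cells, called a member by edgeR, and DESeq2 was not run on them. At an unadjusted p under 0.05 there were 21 members for SMARCA4 knockdown and 17 for ARID2 knockdown, 4.83% and 3.91% of members, against 5.19% and 2.77% of all regions.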

How the data were processed

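ATAC-seq reads had been counted by the authors over 2 sets of regions, and the deposited count tables were used as they stand. Per the submitters' processing notes the tools included Bowtie2 2.2.4, Picard 1.118 and MACS2 2.1.1.20160309, with hg19. How reads were normalized in the authors' deposited log2 table, used only as an alternative, is not given in the sources used here. Groups came from the labels. WT replicates 3 and 4 were not analysed here, and 2 columns that match no sample were not used.

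CPM is a count divided by the library's total over all regions of its table. Both tables were fitted whole with edgeR 4.0.16 (TMM, filterByExpr, glmQLFit and glmQLFTest) in R 4.3.3, with Benjamini-Hochberg adjustment at 0.05, which tested 145532 regions in the knockout table and 145617 in the knockdown table. All groups of a table shared 1 estimate of spread, on 28 and 8 residual degrees of freedom. Each clone was compared with WT of its own set. DESeq2 1.42.0, other scalings, no filter, pooled WT libraries, a replicate block and leaving out libraries were alternatives. Libraries were left out 1 at a time, except that a replicate of the knockout clones was left out of every second clone at a time. On counts simulated for ARID2 knockout against WT cells, both with control knockdown, 70% of regions set 4-fold lower and 8% of those set 2-fold lower were recovered. For the ACTB clone these shares were 78% and 10%. The changed regions were drawn only from those at or above the median count, with a fixed spread. Of the 435 members 286 ranked below the median of all regions, so these shares may not hold for most members.

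Members named in the text are the most accessible, those called in the largest number of clones, those with the largest called change in each knockdown comparison and direction, the most accessible of each bin from 20 to 25 Mb, and those at the edges. The domain, its members and these lists were chosen with earlier results of these data known.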

Additional observations from a re-analysis of the deposited data

Results flagged for a closer look

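Relative to WT of their own sets, the 2 clones of ARID1B differed at 44 members, and the 2 clones of BCL7B at 42 members, by the test of the difference between clones. In the knockdown table, ARID2 knockout cells differed from WT cells with ARID2 knockdown at 13 members, and SMARCA4 knockout cells differed from WT cells with SMARCA4 knockdown at 5 members. Over all regions 3.7% were lower and 1.27% higher for ARID1B, and 3.41% and 0.901% for BCL7B. For ARID2 these shares were 0.117% and 0.00687%, and for SMARCA4 0.575% and 0.21%. Each was picked out because 2 clones, or knockout and knockdown, of the same gene gave unequal accessibility. The clones of ARID1B and of BCL7B belong to different sets, so clone and set cannot be told apart.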

How the results depend on the processing

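Each alternative changed 1 choice at a time, and no called value changed sign among those compared. With all WT libraries pooled, the calls summed over clones were 1259 lower, against 691. DESeq2 called 20 members lower under SMARCA4 knockdown in WT cells (35 by edgeR), 2 higher under double knockdown (4), 1 higher in ARID2 knockout cells (2), 10 higher in SMARCA4 knockout cells (16) and 0 higher in ARID2 knockout cells against WT cells with ARID2 knockdown (1). Scaled to reads on the rest of chromosome 21, 3 clones had the whole domain above both WT libraries, against 6. The cause was not tested.

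Replicate numbers are not said to mark a shared batch, and with 2 libraries per group a pairing was neither established nor excluded. Same-numbered libraries deviated together at r = 0.057 to 0.439 over the 28 pairs of knockdown-table groups, with a median of 0.266 and 25 pairs over 0.1. Over the 351 pairs of the knockout table r was -0.166 to 0.260, with a median of 0.017 and 34 pairs over 0.1. With the replicate number as a block, SMARCA4 knockdown in WT cells had 54 members lower and 4 higher, SMARCA4 knockout cells had 30 higher, SMARCA4 knockdown in ARID2 knockout cells had 6 lower and 3 higher, and SMARCA4 knockout against WT SMARCA4 knockdown had 2 lower and 11 higher. Over the 23 clones of set 1 the block gave 697 calls lower and 196 higher, against 656 and 194.

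Leaving out libraries left fewer samples for every fit. For the knockout clones a replicate was dropped from every second clone at a time, and in the other fits 1 library was dropped. The knockout calls then ran from 354 to 669 lower and 87 to 197 higher, with 374 lower without replicate 2 of each clone, 105 higher without replicate 1 of each clone, and 403 lower and 119 higher without WT replicate 1 of set 1. Clones with a median below 0 numbered 18 to 21 for the domain and 20 to 21 from 20 to 25 Mb. ARID1B clone 5 against clone 7 had 1 to 4 lower and 27 to 38 higher, BCL7B clone 10 against clone 8 had 7 to 34 lower and 4 to 9 higher, and WT set 2 against set 1 had 0 to 2 lower and 12 to 14 higher. In the knockdown table, SMARCA4 knockdown in WT cells had 6 to 12 lower and 0 to 1 higher, and the double knockdown had 2 to 6 lower and 1 to 2 higher. ARID2 knockout cells had 4 to 7 lower and 0 to 1 higher, and SMARCA4 knockout cells had 16 to 22 lower and 4 to 9 higher. SMARCA4 knockdown in ARID2 knockout cells had 0 to 1 lower. ARID2 knockout against ARID2 knockdown had 1 to 10 lower and 0 to 1 higher, and SMARCA4 knockout against SMARCA4 knockdown had 0 to 1 lower and 1 to 2 higher. The median from 20 to 25 Mb ran from -0.55 to -0.35 in ARID2 knockout cells, from -0.57 to -0.38 under SMARCA4 knockdown, from -0.32 to -0.14 under double knockdown, from -0.20 to -0.0070 in SMARCA4 knockout cells and from -0.014 to 0.18 under ARID2 knockdown in WT cells. For SMARCA4 knockdown in ARID2 knockout cells it ran from -0.45 to -0.23, for ARID2 knockdown in SMARCA4 knockout cells from -0.28 to -0.11, for ARID2 knockout against ARID2 knockdown from -0.66 to -0.50 and for SMARCA4 knockout against SMARCA4 knockdown from 0.20 to 0.54. On simulated counts of regions at or above the median count, 2 libraries per group missed most 2-fold changes. The median member held 11 to 40 reads per library, and recovery at less covered regions was not simulated.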
